A study of Mus musculus with 2 samples.

Results

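The nuclear genes that encode the machinery of oxidative phosphorylation were examined for CpG methylation in mouse myotubes. Genes were taken by symbol: autosomal protein-coding genes of the GENCODE annotation whose symbol starts with Nduf, Uqcr, Cox4, Cox5, Cox6, Cox7, Cox8 or Atp5, together with Sdha, Sdhb, Sdhc, Sdhd and Cyc1. This gave 92 annotated genes with 91 symbols, of 20807 autosomal protein-coding genes and 55450 annotated genes in all. The symbol Atp5o belonged to 2 entries, the ordinary gene and a long entry on chromosome 16 that runs through neighbouring genes, and the latter is called Atp5o-long here. No measured value entered this rule, which was set with earlier results of these data known.

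Both libraries came from C3H mouse myoblasts, a commercial line that was differentiated into myotubes in horse serum medium. The siCon library was made from myotubes transfected with a control siRNA, and the siH19 library from myotubes transfected with an siRNA against the long non-coding RNA H19, each 48 h after transfection. There was 1 library per group, so each test below compares 2 libraries and not 2 conditions, and no value has an error between cultures. RNA was not measured in these libraries, so they do not show how far H19 was depleted or how strongly any gene was expressed.

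Methylation was read by reduced representation bisulfite sequencing. MspI cuts the DNA at CCGG and TaqαI at TCGA, short fragments are kept, and bisulfite treatment comes before sequencing. A methylated cytosine is still read as C, an unmethylated one as T, and the level of a cytosine is the percentage of its reads that carry C. The siCon library covered 5453019 cytosines with a median of 12 reads and the siH19 library 5266846 with a median of 13. Cytosines inside CCGG or TCGA were left out, and the rest were compared where each library had at least 5 reads. That left 1850635 cytosines genome-wide and 4888 in the oxidative phosphorylation genes, at 2705 CpGs, with median depths of 31 reads in siCon and 32 in siH19. Start-site windows of muscle genes had levels from 3.89% in siCon and 4.19% in siH19 at Des, over 91 cytosines, to 80.5% and 81.2% at Myog, over only 6. Ckm, Acta1 and Myod1 lay in between. The fibroblast gene Col1a1 had only 4 cytosines in its window, at 41.9% and 48.9%, and the windows of Adipoq and Ptprc had none.

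Oxidative phosphorylation takes place in the inner mitochondrial membrane. Complex I passes electrons from NADH to ubiquinone, complex II does the same from succinate, complex III hands them to cytochrome c, and complex IV passes them on to oxygen. The proton gradient built by complexes I, III and IV drives ATP synthesis by complex V. Most subunits are encoded in the nucleus and are needed in nearly every cell. A few subunits of complex IV also exist in tissue-restricted forms: Cox6a2, Cox7a1 and Cox8b are known from heart and skeletal muscle, Cox4i2 from lung, and Cox6b2, Cox7b2 and Cox8c from testis. Ndufa4l2 is a relative of the complex IV subunit Ndufa4 that responds to low oxygen.

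The common and the tissue-restricted forms differ in the DNA around their start, and the stretches below show this for 3 pairs. Each runs from 250 bases before to 50 bases after the gene's annotated 5′ end, in GRCm38 and in the direction of transcription, with every CpG in capitals. The heart and muscle forms Cox6a2, Cox7a1 and Cox8b are set beside the common forms Cox6a1, Cox7a2 and Cox8a.
Cox6a1, chr5:115348932-115349231, minus strand: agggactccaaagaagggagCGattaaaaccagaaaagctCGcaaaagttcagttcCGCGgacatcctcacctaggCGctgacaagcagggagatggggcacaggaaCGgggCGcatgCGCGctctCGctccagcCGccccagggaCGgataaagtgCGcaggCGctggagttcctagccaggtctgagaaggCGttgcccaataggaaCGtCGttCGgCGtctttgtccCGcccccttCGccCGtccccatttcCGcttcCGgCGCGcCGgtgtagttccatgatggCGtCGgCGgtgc
Cox6a2, chr7:128206338-128206637, minus strand: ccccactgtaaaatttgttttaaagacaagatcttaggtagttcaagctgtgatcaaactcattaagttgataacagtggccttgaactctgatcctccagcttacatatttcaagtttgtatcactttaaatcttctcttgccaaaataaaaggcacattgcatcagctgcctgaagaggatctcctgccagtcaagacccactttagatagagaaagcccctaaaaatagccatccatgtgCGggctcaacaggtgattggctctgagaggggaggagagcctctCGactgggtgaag
Cox7a2, chr9:79759829-79760128, minus strand: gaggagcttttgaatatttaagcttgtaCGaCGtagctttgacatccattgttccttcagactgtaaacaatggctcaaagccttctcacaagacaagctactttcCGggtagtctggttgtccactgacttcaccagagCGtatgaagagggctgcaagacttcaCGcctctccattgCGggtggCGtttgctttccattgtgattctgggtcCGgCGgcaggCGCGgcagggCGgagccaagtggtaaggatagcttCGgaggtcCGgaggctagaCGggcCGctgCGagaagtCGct
Cox7a1, chr7:30183894-30184193, plus strand: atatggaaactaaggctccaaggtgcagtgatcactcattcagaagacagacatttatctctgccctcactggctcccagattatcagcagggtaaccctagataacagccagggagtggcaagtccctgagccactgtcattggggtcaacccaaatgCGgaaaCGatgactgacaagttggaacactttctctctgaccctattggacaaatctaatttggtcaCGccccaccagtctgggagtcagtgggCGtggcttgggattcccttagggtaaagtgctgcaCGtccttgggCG
Cox8a, chr19:7217567-7217866, minus strand: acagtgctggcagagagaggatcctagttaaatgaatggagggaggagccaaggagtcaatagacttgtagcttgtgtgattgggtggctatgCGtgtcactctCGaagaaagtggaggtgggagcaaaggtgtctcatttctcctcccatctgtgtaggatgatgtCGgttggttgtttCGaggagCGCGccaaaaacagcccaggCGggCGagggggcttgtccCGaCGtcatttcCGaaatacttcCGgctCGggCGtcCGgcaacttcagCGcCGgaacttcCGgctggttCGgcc
Cox8b, chr7:140900397-140900696, minus strand: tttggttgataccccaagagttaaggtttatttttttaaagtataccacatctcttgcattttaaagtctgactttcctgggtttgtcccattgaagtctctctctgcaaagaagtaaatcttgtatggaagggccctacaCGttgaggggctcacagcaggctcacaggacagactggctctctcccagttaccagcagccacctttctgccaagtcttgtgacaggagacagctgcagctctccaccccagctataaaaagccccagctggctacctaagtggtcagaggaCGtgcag
The stretch of Cox6a1 held 30 CpGs and that of Cox6a2 held 2. Cox7a2 had 18 against 6 in Cox7a1, and Cox8a had 19 against 2 in Cox8b. Outside CCGG and TCGA, 33 cytosines could be compared in the stretch of Cox6a1, 19 in that of Cox7a2 and 17 in that of Cox8a, and their mean levels were between 0.187% and 1.20% in siCon and between 0.958% and 1.74% in siH19. No cytosine could be compared in the stretches of the 3 muscle forms, so their core promoters were not measured and the values for these genes below come from further out.

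Methylation at the start sites was summarised in windows of 1 kb on each side of the gene's 5′ end, as the unweighted mean of the cytosine levels where at least 5 cytosines were compared. Of the 92 genes, 83 had such a window. Ndufa5, Cox7a1, Ndufa4l2 and Atp5o-long had 1 to 4 compared cytosines, and Ndufb5, Cox7b2, Cox8b, Uqcrb and Cox7a2l had none. The 83 windows held 3654 cytosines, a median of 39 each.

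These start sites were mostly unmethylated. The median level of the 83 windows was 1.10% in siCon and 1.32% in siH19, and 71 of them, or 85.5%, were under 10% in both libraries. Over all autosomal protein-coding genes the medians were 2.23% and 2.34%, and 70.1% of 13127 windows were under 10% in both. For the ribosomal protein genes, another set of genes that most cells use, the share under 10% was 89.5% of 76 windows. Only 3 of the 83 windows, those of Cox8c, Cox4i2 and Cox6b2, were above 50% in both libraries, which is 3.61% against 7.02% of all autosomal protein-coding genes. In the windows, 56.3% of the cytosines of oxidative phosphorylation genes had no methylated read in either library, compared with 49.1% over all protein-coding genes and 62.0% over the ribosomal protein genes.

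CpG content differed between these sets too. A window was put in the high class when some stretch of 500 bp had an observed to expected CpG ratio over 0.75 and more than 55% GC, in the low class when no stretch reached a ratio of 0.48, and otherwise in the intermediate class. Of the 92 genes 81.5% were high, 12.0% intermediate and 6.52% low, against 49.9%, 18.5% and 31.7% of all autosomal protein-coding genes. Among the 73 measured windows of the high class 89.0% were under 10% in both libraries, and 80% of the 10091 high-class windows of all protein-coding genes were. The intermediate class held 5 of 9 measured windows of these genes under 10%.

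All windows of complex II, complex III and the core subunits of complex I were under 10% in both libraries. Among the 7 complex I core genes, Ndufs1, which carries iron-sulphur clusters, was at 1.51% in siCon and 1.05% in siH19 over 74 cytosines, and Ndufv1, which binds NADH, at 0.883% and 0.813% over 42. In complex II the flavoprotein gene Sdha was at 0.350% and 0.452%, the iron-sulphur gene Sdhb at 1.23% and 1.49%, and the membrane anchors Sdhc and Sdhd at 2.64% and 1.74% and at 1.85% and 2.19%. The complex III genes Cyc1, for cytochrome c1, and Uqcrfs1, for the Rieske iron-sulphur protein, were at 3.09% and 2.81% and at 1.63% and 1.01%. Not one of these windows differed between the libraries at an adjusted p under 0.05.

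Complex V was under 10% at 16 of 17 windows. The catalytic core genes Atp5a1 and Atp5b were at 1.42% in siCon and 1.32% in siH19 and at 0.243% and 0.564%. The exception was Atp5g1, one of the genes for the membrane ring subunit, at 11.6% and 12.0% over 19 cytosines. Its 8 cytosines within 300 bp of the 5′ end had no methylated read in either library, and its 4 cytosines more than 500 bp away averaged 50% and 51.5%.

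Some of the higher levels in the other complexes also lay at the edges of the window or in single runs. Of the 25 accessory genes of complex I, 20 were under 10%. Ndufb2 averaged 19.8% in both libraries, but its 46 cytosines within 300 bp of the 5′ end were at 0.642% in siCon and 0.617% in siH19 and its 16 upstream cytosines at 83.6% and 84.5%. Ndufb7 averaged 10.2% and 11.2%, with 0.0741% and 1.23% within 300 bp and 88.6% and 90.8% over 5 upstream cytosines. Ndufs6, at 10.1% and 11.2%, had no such step: its 28 cytosines within 300 bp averaged 11.3% and 12.4%. Ndufa13 went the other way, at 32.4% and 33.6% over 66 cytosines, with 77.3% and 83.9% within 300 bp of its 5′ end and 2.60% and 1.36% more than 500 bp from it. The Ndufa13 window also holds the starts of Yjefn3 and Tssk6, 154 bp upstream and 374 bp downstream. Such sharing was common, since 33 of the 92 windows held the start of another protein-coding gene, and for those windows a level cannot be assigned to 1 gene alone.

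Among the 8 assembly factors of complex I, which help to build the complex and are not part of it, only Ndufaf6 was above 10%. Its window averaged 16.9% in siCon and 16.4% in siH19, with 34 cytosines within 300 bp at 0.554% and 0.610% and 8 cytosines beyond 500 bp at 89.6% and 87.6%. Of the 10 common complex IV windows, Cox6b1 alone was above 10%, at 13.6% and 13.3% over 33 cytosines. Its downstream cytosines averaged 0.681% and 1.11% and its upstream ones 31.0% and 29.7%.

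**Figure D1:**
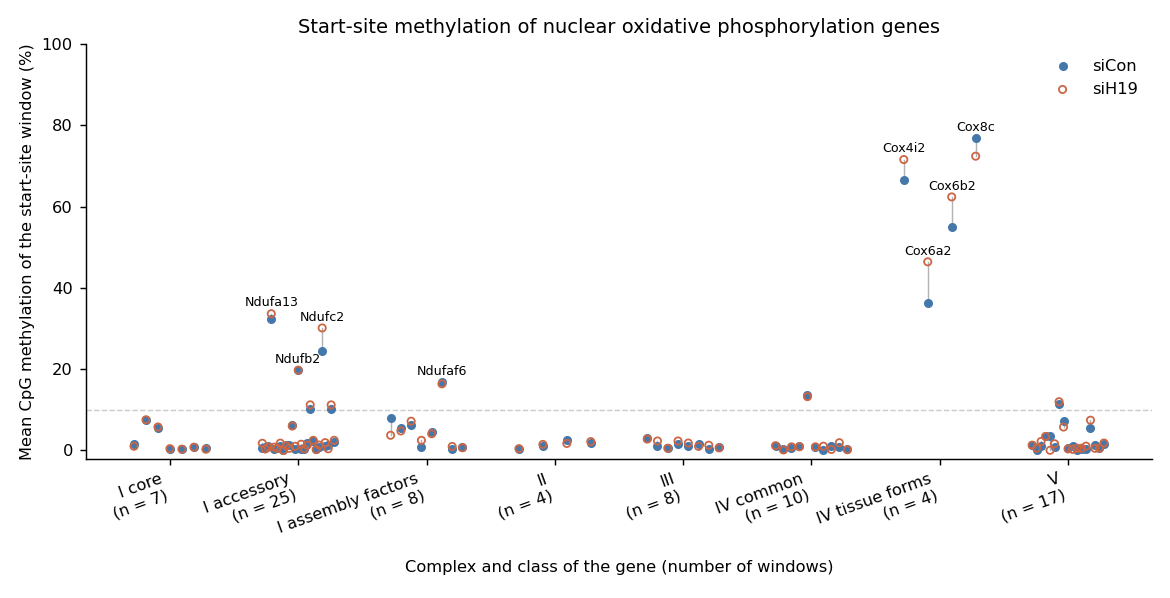
Mean methylation of the start-site window, in percent, for each of the 83 measured genes in siCon (filled points) and siH19 (open points), grouped by complex and class, with a grey line joining the libraries and a dashed line at 10%. Of the windows, 71 lie under 10% in both libraries, and the 4 tissue forms of complex IV lie between 36.4% and 76.9%.

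The level was low on both sides of the start. From 400 bp before to 200 bp after the 5′ end, the cytosines of oxidative phosphorylation genes averaged between 1.94% and 2.65% in siCon and between 2.32% and 2.70% in siH19, in bins of 200 bp. The same bins over all protein-coding genes had 5.63% to 6.87% in siCon. From 200 to 400 bp downstream the members were at 4.02% and 4.52%, and from 400 to 600 bp at 2.47% and 2.22%. Between 800 and 600 bp upstream the members reached 30.7% and 30.4%, over 86 cytosines of 16 genes, while all protein-coding genes were at 14.96% and 15.06% there. The ribosomal protein genes had 36.5% and 34.4% in that bin over 61 cytosines of 15 genes. These upstream bins rest on few genes. Between 800 and 600 bp upstream the median over the 16 genes of the members was 11.5% and 20.6%.

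**Figure D2:**
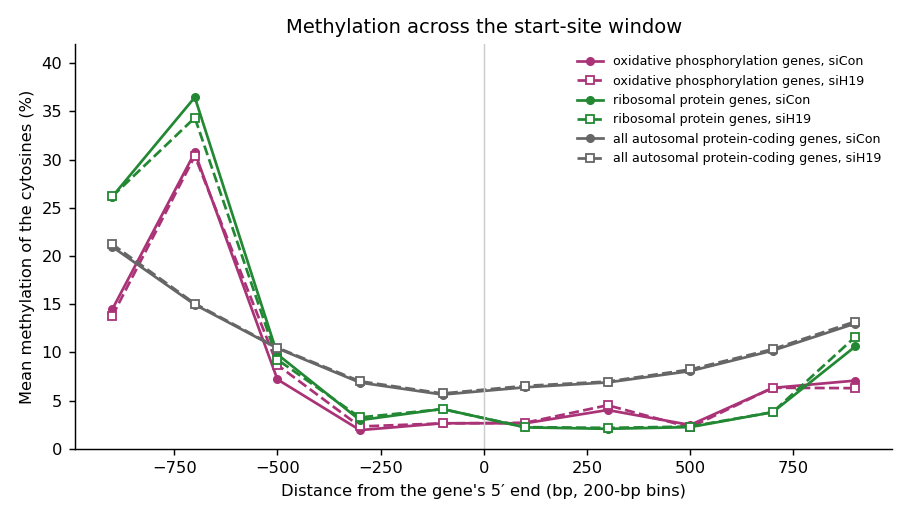
Mean level of single cytosines, in percent, against the distance from the gene's 5′ end in bins of 200 bp, for oxidative phosphorylation genes, ribosomal protein genes and all autosomal protein-coding genes, with siCon as solid and siH19 as dashed lines. The oxidative phosphorylation genes lie between 1.94% and 2.70% from 400 bp before to 200 bp after the start and reach 30.7% in siCon between 800 and 600 bp before it.

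The tissue-restricted forms with any compared cytosine stood apart from their common counterparts in both libraries. For each gene the read-weighted level is given with its Wilson 95% interval. It is the share of methylated reads after the reads of all cytosines in the window are summed. A read thus counts once at every cytosine it covers, and all read counts of regions given here are such sums. The intervals treat every count as separate and cover counting error only. They can be too narrow, because a read covers several cytosines. With no molecular identifiers, copies of 1 molecule also cannot be told from separate molecules. Loci of 1 library are not replicates, so the forms are set side by side without a test.

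Cox6a2, the heart and skeletal muscle form of a complex IV subunit, had 91 methylated reads of 226 in siCon, or 40.3% (34.1 to 46.8), and 163 of 288 in siH19, or 56.6% (50.8 to 62.2). Cox6a1, its common counterpart, was at 1.11% (0.794 to 1.54) and 1.16% (0.864 to 1.56) over 94 cytosines. The 7 cytosines of Cox6a2 lay between 133 and 674 bp downstream of the 5′ end and were uneven: 4 of them at 133 to 206 bp averaged 33.6% in siCon and 42.4% in siH19, 1 at 363 bp was at 5.41% and 6.25%, and 2 at 673 and 674 bp averaged 57.3% and 74.5%. Levels were higher in siH19 at 6 of the 7. The difference was 16.3 points by reads and 10.1 points between the unweighted means of 36.4% and 46.4%. The 2 cytosines at 673 and 674 bp held 85 of the 226 reads in siCon and 176 of the 288 in siH19. The read-weighted difference thus also followed where the reads fell.

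Cox7a1, also a heart and muscle form, had a single compared cytosine in its window, 533 bp upstream, with 66.7% of 6 reads in siCon and 44.4% of 18 in siH19. At those depths the Wilson intervals ran from 30.0% to 90.3% and from 24.6% to 66.3%. Cox7a2, the common form, was at 0.221% (0.0752 to 0.648) and 0.949% (0.585 to 1.54) over 39 cytosines. Cox8b had no compared cytosine in its window or in its body, so nothing can be said of the third muscle form. Its common counterpart Cox8a was at 0.370% (0.158 to 0.863) and 1.01% (0.640 to 1.59), and the testis form Cox8c at 77.9% (73.6 to 81.6) and 72.4% (67.2 to 77.0) over 10 cytosines.

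Cox4i2, the lung form, was at 74.4% (67.3 to 80.4) in siCon and 73.3% (64.8 to 80.4) in siH19 over 8 cytosines, while Cox4i1, the common form, was at 0.893% (0.670 to 1.19) and 0.899% (0.702 to 1.15) over 123 cytosines. The unweighted means of Cox4i2 were 66.5% and 71.6%. Unlike the muscle forms, Cox4i2 could be read at its start. One CpG, 12 bp before the 5′ end, had 91.7% of 36 reads on the plus strand and 83.3% of 60 on the minus strand in siCon, and 66.7% of 18 and 88.2% of 34 in siH19. The CpG lies in the stretch printed here in the same manner as those above, where 16 CpGs are in capitals, and the matching stretch of Cox4i1 held 48.
Cox4i2, chr2:152753923-152754222, plus strand: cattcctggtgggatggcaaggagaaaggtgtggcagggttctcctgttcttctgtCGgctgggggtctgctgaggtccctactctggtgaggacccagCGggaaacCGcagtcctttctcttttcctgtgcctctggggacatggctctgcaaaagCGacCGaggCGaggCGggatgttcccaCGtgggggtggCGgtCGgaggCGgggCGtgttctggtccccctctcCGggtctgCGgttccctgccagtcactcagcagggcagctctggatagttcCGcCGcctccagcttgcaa

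For the testis form Cox6b2 the window was at 58.6% (52.7 to 64.3) and 66.2% (61.4 to 70.6) over 15 cytosines. Its 12 cytosines at 305 to 347 bp averaged 67.6% in siCon and 73.1% in siH19, and 3 at 962 to 967 bp averaged 5.13% and 19.6%. The common form Cox6b1 was at 11.3% (9.41 to 13.6) and 5.06% (3.98 to 6.40) by reads, although its unweighted means of 13.6% and 13.3% differed by 0.303 points, so that the read-weighted difference followed where the reads fell. Ndufa4l2 had 3 cytosines, all more than 500 bp upstream of its 5′ end. Their single levels ran from 25% to 100% in siCon and from 0% to 100% in siH19. By reads the window was at 74.2% (62.1 to 83.4) and 87.5% (76.4 to 93.8), against 0.463% (0.235 to 0.912) and 0.205% (0.0875 to 0.478) at Ndufa4 over 62 cytosines. The unweighted means of Ndufa4l2 went the other way, at 73.4% in siCon and 65.3% in siH19. All 62 cytosines of Ndufa4 lay upstream of its 5′ end, and its window also holds the start of Phf14, 312 bp upstream. The level there cannot be assigned to Ndufa4 alone. Cytochrome c, the carrier between complexes III and IV, is encoded by Cycs in most cells and by Cyct in testis. Cycs was at 3.29% (2.20 to 4.89) and 0.992% (0.455 to 2.15), and Cyct at 16.2% (12.6 to 20.7) and 24.2% (19.7 to 29.4).

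Every common form named in these sets, Cycs included, had a window of the high CpG class. Cox4i2, Cox6a2, Cox6b2, Cox8c and Cyct were intermediate, and Cox7a1, Cox8b and Ndufa4l2 were low. The genome holds 172 CpGs in the window of Cox4i1 and 48 in that of Cox4i2, and 121 and 30 in those of Cox6a1 and Cox6a2. The part of CpG content in the difference between the forms was not tested.

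**Figure D3:**
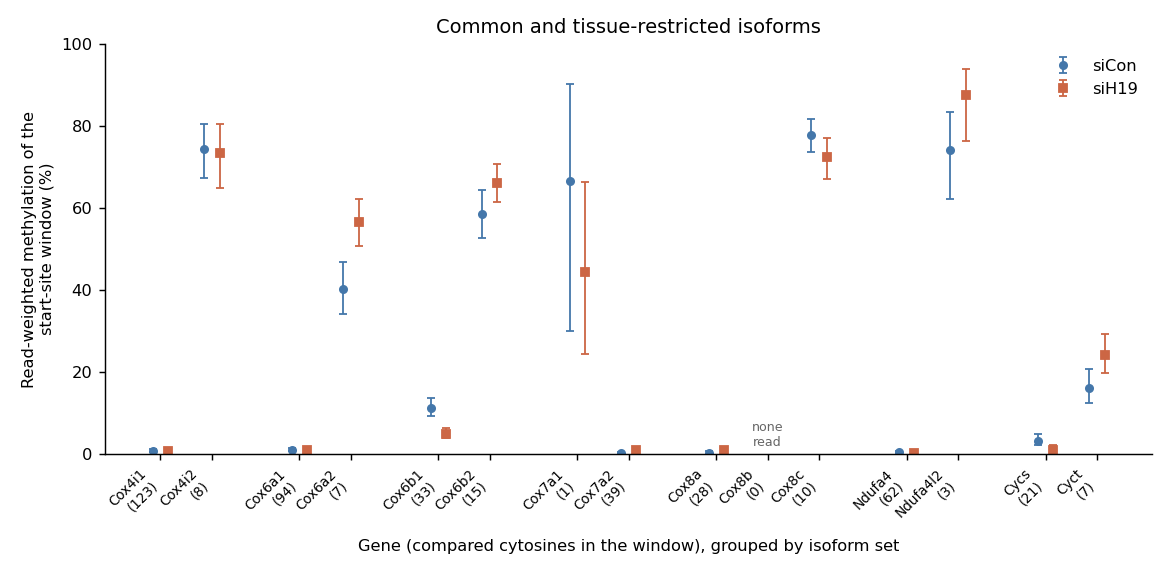
Read-weighted methylation of the start-site window, in percent, for common and tissue-restricted forms in siCon (circles) and siH19 (squares), with Wilson 95% intervals as bars and the number of compared cytosines in brackets. Common forms of complex IV lie at or under 11.3%, Cox6a2, Cox4i2, Cox6b2, Cox7a1, Cox8c and Ndufa4l2 lie at 40.3% or above, and Cox8b had no compared cytosine.

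The comparison of siH19 with siCon asked whether methylation at these genes differed after transfection with the siRNA against H19. Each window was tested by a two-sided exact test of a common odds ratio of 1, stratified by cytosine so that each cytosine was compared with itself in the other library, with Benjamini-Hochberg adjustment over the 19476 windows of all annotated genes. The test and the counting intervals below treat the reads of different cytosines as independent, although 1 read can cover several. The p-values can therefore be too small and the intervals too narrow, even for a comparison of 2 libraries. A window was called when its adjusted p was under 0.05 and its unweighted mean differed by at least 10 percentage points. By this rule 0.632% of all windows were called and none of the 83. With no minimum difference, 6.82% of all windows had an adjusted p under 0.05 and 5 of the 83, or 6.02%, did. At an unadjusted p under 0.05 there were 15, or 18.1%, against 19.7% of all windows. The difference, siH19 minus siCon, had a median of 0.0185 points over the 83 windows and 0.0789 points over all protein-coding genes, with 43 windows higher and 39 lower and a range from -4.47 to 10.1 points.

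Ndufc2, an accessory subunit of the membrane arm of complex I, had the widest difference of the 5. Its window averaged 24.5% in siCon and 30.1% in siH19, or 5.62 points more (counting interval 1.97 to 9.26; exact test, adjusted p = 0.00542). The 36 cytosines fell into runs. Those from 7 to 130 bp downstream of the 5′ end, 14 in number, had 2 methylated reads of 294 in siCon and 3 of 300 in siH19. The 2 at 36 and 24 bp upstream averaged 51.7% and 50%. The 4 from 168 to 195 bp averaged 51.3% in siCon and 75% in siH19, with 2 higher and 2 lower. These 4 had only 5 to 11 reads each in siCon and 6 in siH19. With at least 10 reads required in each library, the window averaged 19.1% and 22.8%, or 3.70 points more in siH19. The 16 cytosines from 233 to 337 bp averaged 35.4% and 42.1% and were higher in siH19 at all 16, a run that was picked after its values were seen and whose cytosines share reads. The stretch around the start holds 8 compared cytosines, which averaged 12.9% in siCon and 12.5% in siH19, and it ends within the unmethylated run.
Ndufc2, chr7:97399753-97400052, plus strand: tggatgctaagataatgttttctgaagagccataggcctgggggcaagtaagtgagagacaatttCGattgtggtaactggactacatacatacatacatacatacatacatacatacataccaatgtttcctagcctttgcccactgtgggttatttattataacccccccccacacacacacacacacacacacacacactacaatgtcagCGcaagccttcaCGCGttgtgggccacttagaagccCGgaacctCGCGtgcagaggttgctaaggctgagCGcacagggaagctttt

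Atp5e, the small epsilon subunit of complex V, was the only one of the 5 that was lower in siH19. It averaged 3.47% in siCon and 0.0513% in siH19 over 26 cytosines, which gave -3.42 points (counting interval -5.93 to -0.898; exact test, adjusted p = 4.33e-06). Summed over the cytosines, 24 of 816 reads were methylated in siCon, spread over 10 cytosines on both strands, and 1 of 1130 in siH19. Both levels were low, and the highest single cytosine in siCon, at 20%, had 10 reads. The stretch around the start of Atp5e, a CpG-rich promoter with 22 CpGs, held 18 of the 26 cytosines.
Atp5e, chr2:174464056-174464355, minus strand: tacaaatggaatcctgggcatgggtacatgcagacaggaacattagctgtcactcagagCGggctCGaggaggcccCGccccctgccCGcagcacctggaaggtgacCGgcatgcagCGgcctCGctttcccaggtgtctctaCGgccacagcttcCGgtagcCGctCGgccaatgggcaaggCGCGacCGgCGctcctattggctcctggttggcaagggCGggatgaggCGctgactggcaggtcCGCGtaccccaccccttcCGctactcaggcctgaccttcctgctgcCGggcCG

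The other 3 windows with an adjusted p under 0.05 were higher in siH19 by about 1 point or less. Ndufa10, an accessory subunit of complex I, was at 0.629% in siCon and 1.78% in siH19. Ndufa6, also an accessory subunit, was at 1.10% and 1.81%. Atp5j, a subunit of the stalk of complex V, was at 0.138% and 0.567%, and its window contains the start of Gabpa. These 3 windows held 55, 80 and 96 cytosines. With cytosines of CCGG and TCGA kept, all 3 lost the pass, at exact adjusted p-values of 0.390 for Ndufa10, 1.00 for Ndufa6 and 0.566 for Atp5j. Atp5j also lost it in windows of 500 bp on each side (exact test, adjusted p = 0.133) and without the deepest 1% of cytosines (exact test, adjusted p = 0.168). Ndufc2 and Atp5e passed in all 6 alternatives in which the same test was run again, where the number of windows passing lay between 2 and 6.

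Other wide differences did not pass the test, and those of the tissue forms rest on few cytosines. Cox6a2 was the one window at or above 10 points, with 36.4% in siCon and 46.4% in siH19, and its difference of 10.1 points had a counting interval from 1.41 to 18.7 (exact test, adjusted p = 0.310). Cox6b2 had 55.1% and 62.4%, a difference of 7.28 points (exact test, adjusted p = 0.263). At Cox8c the values were 76.9% and 72.4%, a difference of -4.47 points with a counting interval from -10.7 to 1.73 (exact test, adjusted p = 0.318). The assembly factor Ndufaf1 was at 8.05% and 3.75% over 28 cytosines (exact test, adjusted p = 0.116), and Atp5l, a membrane subunit of complex V, at 5.54% and 7.46% over 21 (exact test, adjusted p = 0.183). For the 3 tissue forms among these the intervals still admit differences of 10 points in 1 direction. With few cytosines and 1 library per group, the data do not show whether they differ by that much.

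**Figure D4:**
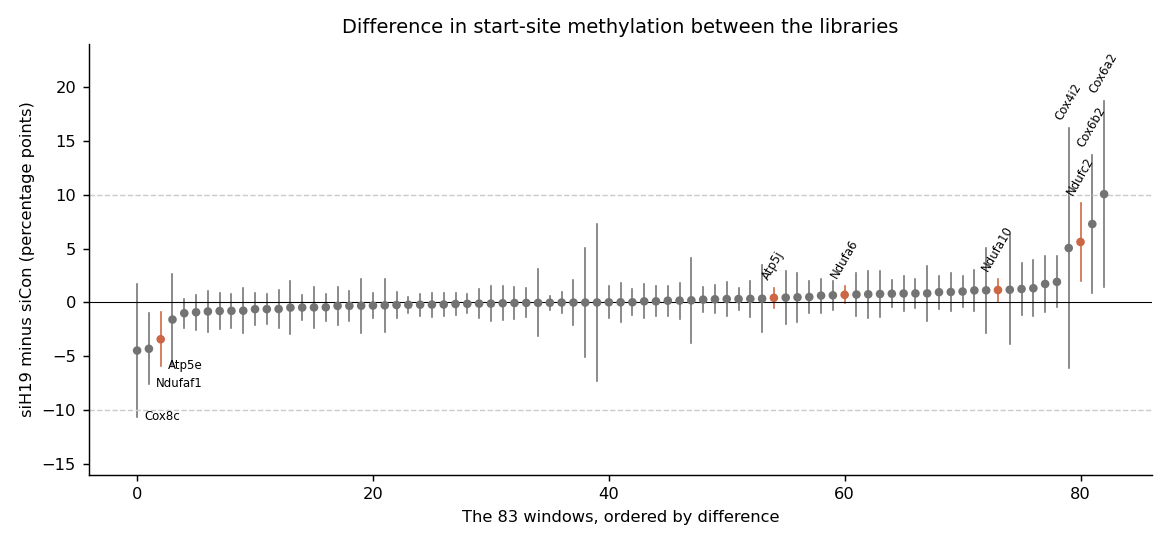
Difference in mean methylation between the libraries, siH19 minus siCon in percentage points, for the 83 start-site windows in order of the difference, with 95% counting intervals as bars, windows with an adjusted p under 0.05 in orange and dashed lines at 10 points in each direction. The differences run from -4.47 to 10.1 points, and none of the 5 orange windows reaches 10 points.

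Both strands of a CpG were read separately, which gives a technical comparison within a library. In the 80 windows with at least 5 cytosines on each strand, the difference between the libraries had the same sign on both strands in 34. The median gap between the strands' differences was 0.916 points, and the median size of the windows' differences was 0.462 points. Levels themselves were alike in the libraries, with Pearson's r = 0.993 and Spearman's rho = 0.783 across the 83 windows, which share the same 2 libraries. Weighting mattered for a few windows: in 8 the read-weighted and unweighted differences lay at least 3 points apart. They had opposite signs in 3 of the 8: Ndufb7, at 1.01 points unweighted and -7.92 by reads, Ndufaf6, at -0.457 and 4.92, and Cox4i2, at 5.05 and -1.07.

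**Figure D5:**
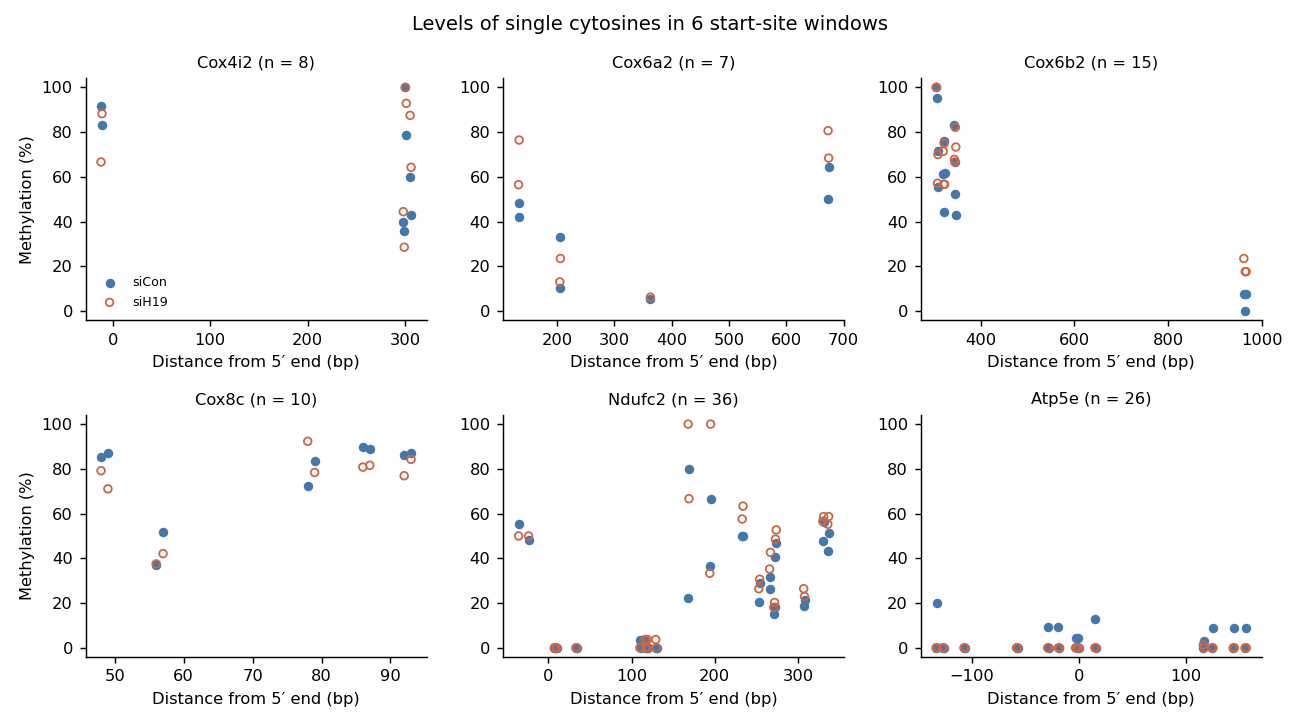
Methylation of single cytosines, in percent, against the distance from the 5′ end in bp in 6 start-site windows, with siCon as filled and siH19 as open points and n the number of cytosines. The distance axes differ between panels. In Ndufc2 the cytosines from 233 to 337 bp are all higher in siH19, and in Atp5e the siCon points reach 20% while no siH19 point exceeds 1.33%.

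The gene bodies, taken as the gene span outside its own start-site window, were mostly methylated. Of the 92 genes 35 had at least 5 compared cytosines in the body, 29 had 1 to 4 and 28 had none. The median level of the 35 bodies was 71.0% in siCon and 69.9% in siH19, against 61.5% and 61.9% over 13571 bodies of autosomal protein-coding genes. Of the 32 genes with a measured window and body, 28 had the higher level in the body in both libraries, with a median gap of 72.6 and 74.1 points. The exceptions were Cox4i2, Cox6b2, Ndufa13 and Atp5g2. Cox6b2 was at 8.53% and 14.4% over 6 body cytosines, and Cox4i2 at 37.0% and 32.7% over 5. In both genes the body was less methylated than the start-site window. The window cytosines of Cox6b2 all lay 305 to 967 bp downstream of the 5′ end, so its start itself was not measured.

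The level in the body was higher further from the start, up to 20 kb. Leaving out Atp5o-long, whose body spans other genes and holds 485 of the 1161 cytosines in the 35 bodies, cytosines 1 to 2 kb from the 5′ end averaged 22.5% in siCon and 22.7% in siH19. From 5 to 10 kb the averages were 71.5% and 73.8%, and from 10 to 20 kb 85.4% and 86.6%. All protein-coding genes were at 22.6%, 50.9% and 56.4% in siCon over the same distances. Beyond 20 kb the members were at 35.2% and 34.7%, over 130 cytosines of 7 genes. Coding exons in the bodies averaged 60.2% and 62.4%, introns 48.0% and 48.1%, and untranslated exons 21.7% and 22.2%. Low bodies were found in complex V, where Atp5d was at 6.35% and 7.14% over 67 cytosines, Atp5f1 at 4.01% and 3.76% over 27 and Atp5g2 at 2.71% and 4.01% over 45. The 5′ end used was the outermost annotated one, and in Atp5d and Atp5f1 no cytosine within 300 bp of it could be compared. Whether a low stretch at the start runs on into these bodies was not tested.

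By the rule used for windows, 0.239% of the 18018 bodies of all annotated genes were called and none of the 35. With no minimum difference the shares were 1.24% and, again, none of the 35, and at an unadjusted p under 0.05 there were 2 of them, Ndufaf6 and Atp5g2, or 5.71%, against 12.1% of all bodies. The median difference was 0.571 points, against 0.172 points over all protein-coding genes, with 22 bodies higher in siH19 and 13 lower. Among bodies with at least 10 cytosines, the differences upwards were widest at Ndufaf6, which had 56.1% and 67.0% over 12 cytosines (exact test, adjusted p = 0.162), at the complex I subunit Ndufv3, with 73.7% and 83.5% over 16 (exact test, adjusted p = 0.455), and at Atp5o, with 86.6% and 92.3% over 12. Downwards they were widest at Cox6c, with 84.3% and 78.5% over 11, at Ndufa7, with 84.6% and 82.5% over 13, and at Ndufb9, with 93.9% and 92.8% over 10. None of these 6 bodies had an adjusted p under 0.05.

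Single cytosines were also compared, each with Fisher's exact test (two-sided). Those with an unadjusted p under 0.05 whose levels lay 33 points or more apart were called strongly changed. Genome-wide 0.987% of the 1850635 cytosines met this, 0.52% higher and 0.467% lower in siH19. Of the 4888 cytosines in the oxidative phosphorylation genes 15 did, or 0.307%, 9 higher and 6 lower, in 12 genes. A cytosine near 0% in both libraries cannot differ by so much. Among the 335 member cytosines with a mean level between 20% and 80%, 13 were strongly changed, or 3.88%, compared with 3.48% of all such cytosines. None of the 15 passed adjustment over all cytosines, where the lowest adjusted p was 0.624, whereas 120 cytosines genome-wide had an adjusted p under 0.05. Of 11 with the other strand measured, 6 moved the same way there, and 2, the strands of 1 CpG in Atp5s, were both strongly changed.

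The 3 strongest in each direction are described. For Cyc1 and Atp5s, and for a cytosine of Sdhc that resembles the latter, the 41 bases centred on the cytosine are printed, read on its own strand, with the CpG in capitals. In Cyc1 an intronic cytosine at chr15:76343934 on the minus strand had 14 methylated reads of 32 in siCon, or 43.8%, and 3 of 37 in siH19, or 8.11%. Its partner on the plus strand was not lower in siH19, at 30.1% and 35.6% of 73 reads each.
Cyc1, chr15:76343914-76343954, minus strand: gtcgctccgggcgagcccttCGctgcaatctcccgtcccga
In Ndufaf3, an assembly factor of complex I, a coding cytosine had 4 methylated reads of 12 and 0 of 36, and its partner had no methylated read in either library. In Ndufa12, an accessory subunit of complex I, an intronic cytosine was at 92.3% of 13 reads and 46.7% of 15, with its partner at 97.3% and 94.7%. Upwards, the untranslated exon of Ndufc2 had a cytosine 168 bp from the start at 22.2% of 9 reads and 100% of 6, with its partner at 80% and 66.7%. In Atp5o-long an intronic cytosine was at 40.0% of 10 reads and 86.7% of 30, and its partner at 77.8% and 80.4%.

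Atp5s, a regulatory factor of complex V, held the only CpG that changed strongly on both strands, in an intron at chr12:69733313-69733314. The minus strand had no methylated read of 8 in siCon and 15 of 25 in siH19, and the plus strand 0 of 8 and 10 of 18. The CpG lies in a repeat. A strongly changed cytosine in an intron of Sdhc, at chr1:171140487 with 25% of 8 reads and 85.7% of 14, lies in a repeat too, and 39 of the 41 bases around both cytosines are the same.
Atp5s, chr12:69733294-69733334, minus strand: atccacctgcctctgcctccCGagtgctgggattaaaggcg
Sdhc, chr1:171140467-171140507, plus strand: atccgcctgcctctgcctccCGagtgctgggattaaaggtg
In all 4 of the 15 strongly changed cytosines lay in repeats. Whether reads of these copies were placed correctly was not tested.

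Other nuclear genes of the pathway were followed as a list of 45 genes, most of them assembly factors of complexes I to V, with Cycs, Cyct and the electron transfer flavoprotein genes. Of 42 measured windows 39, or 92.9%, were under 10% in both libraries, and none was called. Adjusted p-values under 0.05 were found for 2 of the 42, and 6.82% of the windows of all annotated genes passed that threshold. Of the 2, Sdhaf4, an assembly factor of complex II, was higher in siH19, at 1.70% and 3.13% (exact test, adjusted p = 0.00270). Sco2, a copper carrier for complex IV, was lower, at 2.43% and 1.31% (exact test, adjusted p = 0.00700). Coa3, an assembly factor of complex IV, had the highest window of the list, at 35.6% and 38.7% over 46 cytosines. The Cyct window, at 14.1% and 23.5%, did not pass (exact test, adjusted p = 0.119). In the bodies 24 were measured and none was called.

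The stretches of 300 bases around the start were searched on both strands for short motifs of factors known from mitochondrial and muscle genes. TGCGCA, the core of the NRF1 site, was in 17.4% of the 92 stretches and in 9.42% of all autosomal protein-coding genes. CCGGAA, an ETS core of the kind GABPA binds, was in 31.5% against 17.9%, and because it contains CCGG its cytosines were left out of the levels. AAGATGG, a YY1 core, was in 13.0% against 6.24%, and AAGGTCA, a half-site of the oestrogen-related receptors, in 10.9% against 4.23%. CAGCTG, an E-box used by MyoD, was in 15.2% against 15.5%. Among the ribosomal protein genes the shares were 13.9%, 41.8%, 12.7%, 10.1% and 10.1% in the same order. Of the stretches printed here, those of Cox6a1, Cox7a2, Cox8a, Ndufc2 and Atp5e hold CCGGAA, and those of Cox6a2 and Cox8b hold CAGCTG. Cox6a1 also holds TGCGCA and Atp5e AAGGTCA. A match of letters is a description of the sequence and not a measured site.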

How the data were processed

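The members, the gene lists, the tests and the alternatives were chosen with earlier results of these data known. Genomic DNA of 2 libraries was analysed, grouped by their labels. Alignment was done by the authors with Bismark, run non-directionally in a commercial pipeline that trimmed filled-in nucleotides at the calling step, as their methods state. The submitters' processing notes name mm10 and bcl2fastq 1.8.4. Whether duplicate reads were removed is not given in the sources used here. The deposited files hold 1 entry per CpG cytosine and strand, whose text field gives the methylated and the total reads as the authors counted them, unnormalized, beside a rounded percentage. The deposited score is the methylated share on a scale set by the authors and served only to check the parsed counts, which it matched in 100% of entries. All 6041258 positions on assembled chromosomes were CpG cytosines of GRCm38, whose coordinates are given here counted from 1. Columns that could not be matched to a sample numbered 0.

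Filled-in ends can make cytosines of CCGG and TCGA read as the nucleotide added in the laboratory, so these were left out. Genes came from GENCODE vM21 basic, and sequences were read from the GRCm38 reference at those coordinates. Cytosines needed 5 reads or more in both libraries, and regions needed 5 such cytosines. Counting intervals of differences use binomial variances of single cytosines, each level first drawn toward the middle by 0.5 of a methylated and 0.5 of an unmethylated read. Named genes were the isoform sets, the 10 windows with the highest mean level, any called region, the 3 largest differences in each direction among windows and bodies with at least 10 cytosines, the 3 strongly changed cytosines with the lowest p in each direction, and 12 core subunits. Others are named where they explain a count. The scripts were tested on simulated data and used Python 3.11.15, numpy 2.4.6, pandas 2.3.3, scipy 1.17.1 and numba 0.67.0. Alternatives were other read and cytosine minimums, kept sites, summed strands, a window of 500 bp, removal of the deepest 1% of cytosines or of soft-masked repeats, read weighting, a Fisher test of the reads summed over a region, and other thresholds.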

Additional observations from a re-analysis of the deposited data

How the results depend on the processing

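With 1 library per group no replicate could be left out. No paired analysis was possible because each group holds 1 library. Keeping cytosines of CCGG and TCGA changed levels most: 10 of 85 windows, in place of 71 of 83, were then under 10% in both libraries. With these sites kept, 72 of 7110 cytosines were strongly changed, in place of 15 of 4888. Strongly changed cytosines numbered 9 of 4295 with at least 10 reads in each library and 5 of 2705 CpGs with strands summed. There were 0 at an adjusted p under 0.05 with no minimum difference. Shares over all cytosines under these settings are not given here, so these counts cannot be set against a background. Windows called numbered 5 with no minimum difference and 1, Cox6a2, by a Fisher test of the reads summed over a region. That test called 4 of the 35 bodies, Atp5j2, Atp5o-long, Ndufaf6 and Ndufv3. It called 2.52% of all windows and 8.67% of all bodies, and it also responds to where reads fall within a region. Calls were 0 under the other alternatives run for windows and bodies. The count of windows under 10% stayed between 69 and 74 under the remaining alternatives. The median difference of the windows took both signs, at -0.00809 points with at least 10 reads, -0.0132 with strands summed and 0.313 with sites kept, and that of the bodies was -0.0223 with at least 10 reads. The mean level of the Cycs window was 5.99% and, with at least 10 reads, 1.23%, that of Cox6b1 13.4% and 5.55%, and that of Ndufa4l2 69.4% and 97.8%, the latter over 2 cytosines. The tissue forms are limited by few compared cytosines, 0 to 15 per window.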

Other observations

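The nuclear genes Ndufa1, Ndufb11 and Cox7b of the pathway lie on the X chromosome and were outside the rule. Ndufa1, an accessory subunit of complex I, had a window at 31.0% in siCon and 36.7% in siH19 over 97 cytosines, with single cytosines from 0% to 55.6% and from 15% to 72% (exact test stratified by cytosine, adjusted p = 5.22e-05). Its difference of 5.67 points was under the 10 points needed for a call. Ndufb11, also of complex I, was at 27.3% and 31.5% over 52 cytosines (exact test, adjusted p = 0.881). Cox7b had no compared cytosine in its window.

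The remaining subunits are encoded by the mitochondrial genome, where 39 cytosines could be compared. By reads, 0.970% (Wilson 95% interval 0.861 to 1.09) of 27729 were methylated in siCon and 1.34% (1.21 to 1.48) of 28431 in siH19, while the unweighted means of the cytosines were in the other order, at 2.04% and 1.38%. Protein genes with a compared cytosine were 4 of 13. In mt-Nd1, a core subunit of complex I, 0.805% of 3850 reads and 1.48% of 12081 were methylated, and in mt-Co1, the catalytic subunit of complex IV, 0.890% of 8878 and 0.744% of 8064. No unmethylated control was analysed here, so these shares include any incomplete conversion by bisulfite.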
